A study of Mus musculus with 14 samples.

Results

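The genes described here are 37 mouse genes of glucose metabolism and of the response to low oxygen, listed by role and followed over gallbladder, liver and small intestine material. The list held 20 genes of glycolysis, 3 of gluconeogenesis, 3 pyruvate dehydrogenase kinases and 11 genes of the hypoxia response. Each gene was read from the probe set that names it alone and has the highest mean signal. By this rule 34 of the 37 genes were measured, out of 19938 genes on the array. Gpi1 (glucose phosphate isomerase), Pfkfb1 and Eno1 (the ubiquitous enolase) were not analysed here. No probe set in the annotation used carried these symbols, alone or with others. All 34 were tested, with no filter on low signal.

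All material came from C57BL/6 mice, and each of 7 groups had 2 Affymetrix arrays. Organoids are hollow or budding epithelial structures grown from tissue stem cells in a gel. The gallbladder organoids, liver organoids and small intestine organoids grew in Matrigel under AdDMEM/F12 with B27, N2 and N-acetylcysteine. That medium also held EGF, FGF10 and HGF at 50 ng/mL each, 10 mM nicotinamide, and conditioned media carrying R-spondin 1 (a Wnt agonist) and noggin (a BMP antagonist). Differentiated gallbladder organoids had spent 2 weeks in medium from which nicotinamide, noggin and R-spondin 1 were left out, and the labels name no other change. The tissue groups of gallbladder, liver and small intestine are whole samples, and the labels give neither the age of the mice nor the oxygen tension of the cultures. Nothing in the labels says whether the 2 arrays of a group came from separate mice or cultures. The p-values rest on the spread between replicate arrays, which may be technical. That spread was pooled per gene over all 7 groups and taken as equal, although organoid replicates lay closer together than tissue replicates. Over all genes the pooled SD was 0.25 log2 units, against 0.0952 to 0.136 in organoid groups and 0.289 to 0.404 in tissue groups.

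Glycolysis turns glucose into pyruvate and lactate and yields ATP without oxygen. Gluconeogenesis runs the other way through a few enzymes of its own and is carried out mainly by hepatocytes, kidney and, to a lesser degree, enterocytes. When oxygen falls, the prolyl hydroxylases Egln1 and Egln3 no longer mark the alpha subunits of hypoxia-inducible factor (HIF) for destruction, and HIF binds a short core motif near its target genes. Those targets include most glycolytic enzymes, pyruvate dehydrogenase kinase 1, which keeps pyruvate out of mitochondria, and the genes of the hypoxia list used here.

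The HIF core motif was searched for as ACGTG or GCGTG on both strands in RefSeq promoter windows (GRCm38.p6) that reach from 250 bases before to 50 bases after a gene's start. Of 32851 such windows, 43.8% held at least 1 match. Among the hypoxia genes, 10 had a window and all 10 of them had a match, in 13 of 14 windows; Ndrg1 had no window here. For glycolysis 25 of 36 windows (69.4%) held a match, for the pyruvate dehydrogenase kinases 3 of 5, and for the 3 gluconeogenic genes 0 of 3. A match is a run of letters and no evidence of binding, and a window without one says only that these letters are not in it. The 200 bases before the start are printed for 7 genes: Bnip3, P4ha1 and P4ha2, which differed between the gallbladder cultures; Car9, which rose most from liver tissue to liver organoids; and Fbp1, Pck1 and G6pc, the gluconeogenic genes. Capitals mark the motif on either strand, where CACGC and CACGT are its reverse complements and CACGTG counts as 2 overlapping matches.
Bnip3, chr7:138909507-138909706, minus strand: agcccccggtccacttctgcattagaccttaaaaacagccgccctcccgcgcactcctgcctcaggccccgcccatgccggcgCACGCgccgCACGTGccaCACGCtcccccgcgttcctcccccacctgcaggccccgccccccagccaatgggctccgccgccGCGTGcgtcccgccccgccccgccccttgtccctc
P4ha1, chr10:59323096-59323295, plus strand: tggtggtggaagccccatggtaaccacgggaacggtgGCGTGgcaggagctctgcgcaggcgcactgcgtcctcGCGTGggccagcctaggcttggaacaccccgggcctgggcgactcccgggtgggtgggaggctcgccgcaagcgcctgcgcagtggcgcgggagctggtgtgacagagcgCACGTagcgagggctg
P4ha2, chr11:54100724-54100923, plus strand: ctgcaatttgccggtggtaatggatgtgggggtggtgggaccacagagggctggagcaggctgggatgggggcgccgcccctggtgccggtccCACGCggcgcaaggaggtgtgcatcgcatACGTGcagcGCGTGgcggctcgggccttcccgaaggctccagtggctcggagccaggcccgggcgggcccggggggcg
Car9, chr4:43506826-43507025, plus strand: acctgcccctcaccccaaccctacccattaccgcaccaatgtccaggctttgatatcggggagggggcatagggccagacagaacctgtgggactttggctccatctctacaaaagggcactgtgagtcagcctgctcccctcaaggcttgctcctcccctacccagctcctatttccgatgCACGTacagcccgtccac
Fbp1, chr13:62888283-62888482, minus strand: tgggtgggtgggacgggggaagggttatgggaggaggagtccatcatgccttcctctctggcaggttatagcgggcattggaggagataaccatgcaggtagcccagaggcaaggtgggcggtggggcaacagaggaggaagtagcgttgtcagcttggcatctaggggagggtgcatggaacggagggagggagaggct
Pck1, chr2:173152873-173153072, plus strand: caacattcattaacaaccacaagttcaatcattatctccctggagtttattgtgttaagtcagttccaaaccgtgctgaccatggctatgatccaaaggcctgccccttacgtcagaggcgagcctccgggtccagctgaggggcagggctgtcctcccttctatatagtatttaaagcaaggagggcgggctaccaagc
G6pc, chr11:101367516-101367715, plus strand: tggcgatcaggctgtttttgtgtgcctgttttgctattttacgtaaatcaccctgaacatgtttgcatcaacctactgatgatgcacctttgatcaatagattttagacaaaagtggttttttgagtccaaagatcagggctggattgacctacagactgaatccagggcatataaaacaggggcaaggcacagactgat
In the printed stretch Bnip3 had 5 matches, 4 of them within 99 to 117 bases before the start, P4ha1 and P4ha2 had 3 each, and Car9 had 1, which began 18 bases before the start.

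Signals are log2 values on which the authors had run RMA, and the median gene lay between 7.74 and 7.93 on the 14 arrays. Replicate arrays differed less among organoids (pooled SD 0.0952 to 0.136 log2 units) than among tissues (0.289 to 0.404). Marker lists differed between the tissue arrays. The mean of 10 hepatocyte markers was 12.81 and 13.92 log2 units in gallbladder tissue, 14.24 and 14.10 in liver tissue, 8.65 and 9.03 in small intestine tissue and 6.79 to 6.93 in the gallbladder and liver organoids. Gallbladder tissue therefore carried hepatocyte transcripts, and 9 of the 10 were higher in its replicate 2; it also carried the highest smooth muscle signal (12.79 and 12.33). Liver organoids had low signal of the hepatocyte markers (Alb 6.36 and 6.04 log2 units, against 14.34 and 14.35 in liver tissue) except Ttr. Ttr stayed high, at 12.67 and 12.56 in liver organoids against 14.23 and 14.34 in liver tissue. Biliary markers of liver organoids were near those of gallbladder organoids (11.73 and 11.70 against 11.95 and 11.92). Pancreatic acinar markers stood at 12.79 in replicate 2 of small intestine tissue and 7.10 in replicate 1, and 5 adipocyte markers at 6.79 and 8.65 in the 2 liver tissue arrays. In whole tissue, fewer cells of a type and less RNA per cell cannot be told apart.

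The members ranged widely: 23 of the 34 spanned over 2 log2 units across the 14 arrays and 4 spanned over 6. Liver organoids had the highest group mean for 13 members, more than any other group, and liver tissue the lowest for 8. The mean of the 11 hypoxia genes was 11.03 and 11.04 log2 units in liver organoids, 10.59 and 10.38 in gallbladder organoids, 9.64 and 10.16 in small intestine organoids and 9.31 and 9.52 in differentiated gallbladder organoids. The same mean lay between 9.17 and 9.97 in the tissues, so both the gallbladder and the liver organoid arrays were above every tissue array. No test was made on these means.

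**Figure D1:**
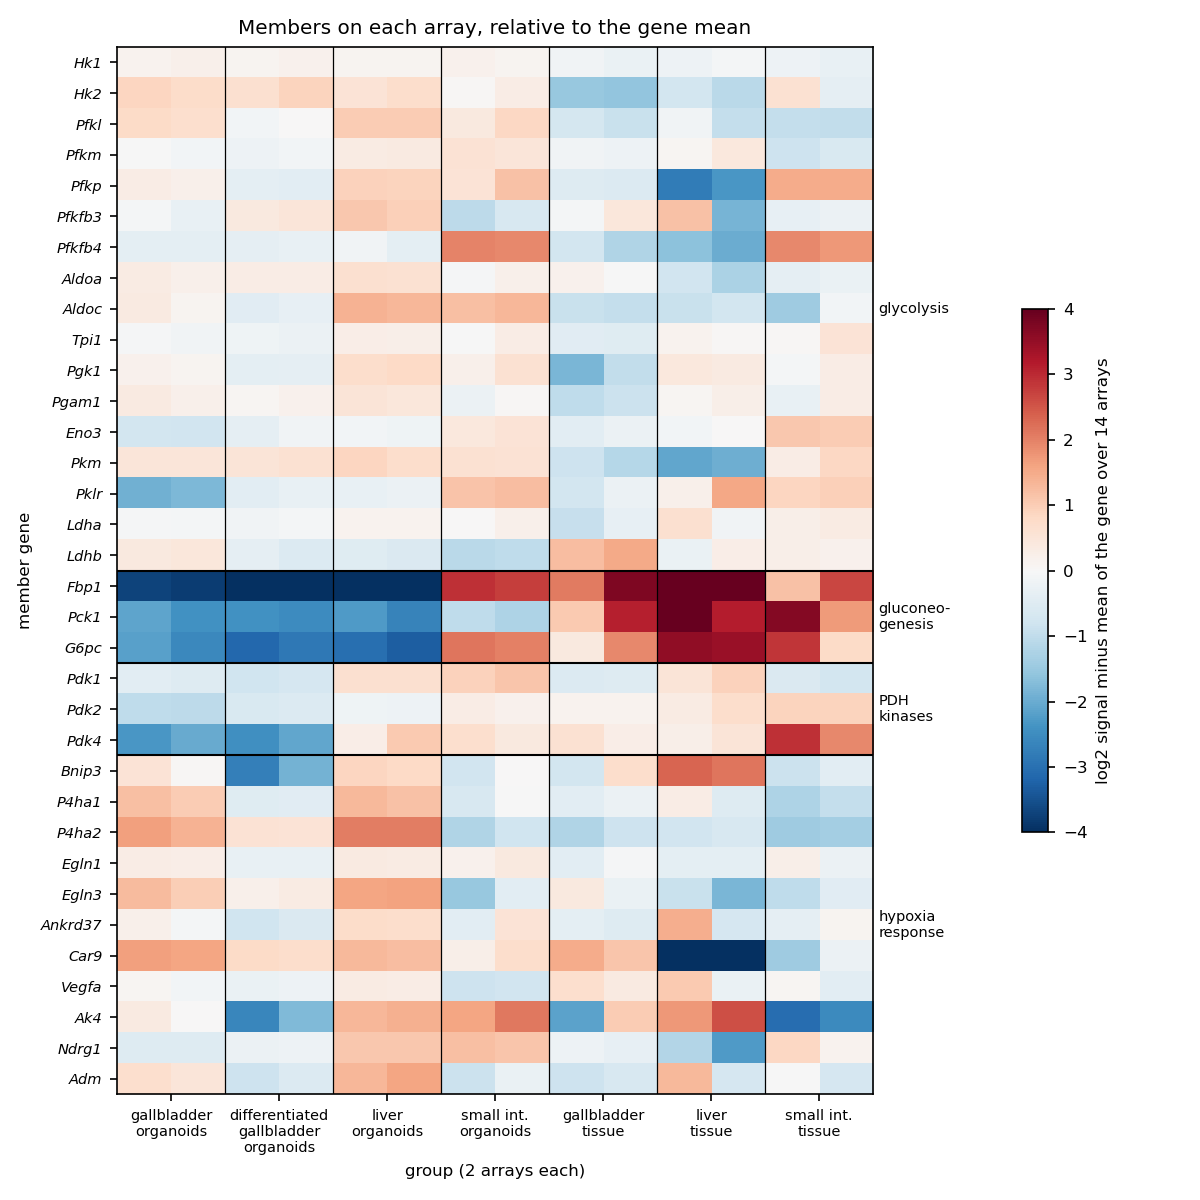
Heat map of the 34 measured genes (rows, by role) on the 14 arrays (columns, 2 per group); colour is the log2 signal minus the gene's mean over the 14 arrays, cut at 4 log2 units either way. The 3 gluconeogenic genes are blue in gallbladder, differentiated gallbladder and liver organoids and red in the tissues, and Car9 is dark blue in liver tissue alone.

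Over the 14 single arrays the 3 gluconeogenic genes had the widest ranges of the 34 members, at 8.46 log2 units for Fbp1, 6.85 for G6pc and 6.68 for Pck1, followed by Car9 at 6.28. Fbp1 encodes fructose-1,6-bisphosphatase, which reverses the phosphofructokinase step. Its log2 signal was 5.86 and 5.78 in gallbladder organoids, 5.39 and 5.55 in differentiated gallbladder organoids and 5.45 and 5.52 in liver organoids, but 12.49 and 12.33 in small intestine organoids. In the tissues it was 11.66 and 13.29 (gallbladder), 13.85 and 13.78 (liver) and 10.75 and 12.25 (small intestine). The 6 arrays of gallbladder and liver organoids were thus low and all the others high, without overlap. G6pc, the catalytic subunit of glucose-6-phosphatase, which releases free glucose, showed the same split. Its log2 signal was 7.77 and 7.36, 6.82 and 7.10, and 6.93 and 6.65 in gallbladder, differentiated and liver organoids, 12.10 and 11.97 in small intestine organoids, and 10.33 and 11.86, 13.49 and 13.40, and 12.80 and 10.73 in gallbladder, liver and small intestine tissue. Pck1, cytosolic phosphoenolpyruvate carboxykinase, was low in all 4 organoid groups. It read 7.93 and 7.64 in gallbladder organoids, 7.63 and 7.53 in differentiated, 7.77 and 7.37 in liver and 9.03 and 8.81 in small intestine organoids, against 11.08 and 13.16, 14.05 and 13.20, and 13.72 and 11.76 in gallbladder, liver and small intestine tissue. No organoid array reached any tissue array.

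**Figure D2:**
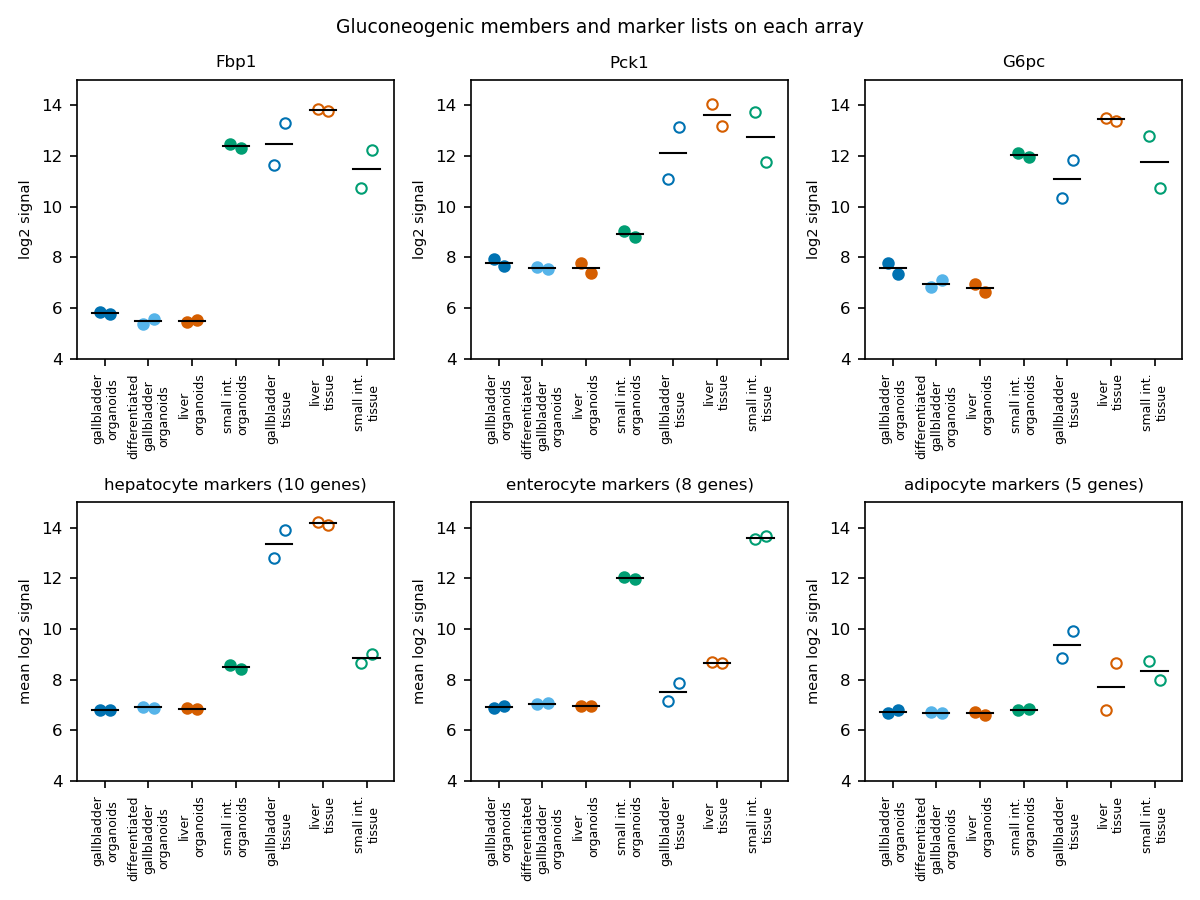
Log2 signals of Fbp1, Pck1 and G6pc (top) and mean log2 signals of the hepatocyte, enterocyte and adipocyte markers (bottom) on each array; filled points are organoids, open points tissues, and bars the mean of the 2 arrays of a group. Small intestine organoids hold Fbp1 (12.49 and 12.33) and G6pc (12.10 and 11.97) within the tissue range but Pck1 (9.03 and 8.81) below it. In those organoids hepatocyte markers average 8.56 and 8.43 and enterocyte markers 12.06 and 11.97. Single hepatocyte markers there run from 5.31 and 5.34 (Serpina1c) to 13.61 and 13.47 (Apoa1).

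Glycolysis starts with the hexokinases, which trap glucose as its 6-phosphate. Hk2, the inducible form, gave 9.19 and 9.06 log2 units in gallbladder organoids, 8.97 and 9.22 in differentiated, 8.89 and 9.04 in liver and 8.38 and 8.63 in small intestine organoids. In the tissues Hk2 was 6.82 and 6.75 (gallbladder), 7.60 and 7.25 (liver) and 8.95 and 7.99 (small intestine), so that 1 small intestine tissue array lay in the organoid range and the other 5 tissue arrays below it. Hk1, the housekeeping form, had 2 probe sets that differed. The one taken by the rule stayed between 13.12 and 13.61 log2 units, within the 11.89 to 13.7 spanned by 16 probe sets that name both Hk1 and the ribosomal protein gene Rpl17. The other ran from 7.81 to 10.93 and was high in liver organoids (10.79 and 10.93) and low in liver tissue (7.92 and 7.81), so the Hk1 values below depend on the probe set.

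Phosphofructokinase commits sugar to glycolysis and has liver (Pfkl), muscle (Pfkm) and platelet (Pfkp) subunits. Pfkl was 11.22 and 11.13 log2 units in gallbladder organoids, 10.35 and 10.49 in differentiated, 11.50 and 11.50 in liver and 10.87 and 11.31 in small intestine organoids, and 9.50 to 10.32 over the 6 tissue arrays, all below every organoid array. Pfkp was highest in small intestine tissue (11.65 and 11.63) and lowest in liver tissue (7.37 and 7.83); gallbladder tissue gave 9.64 and 9.62, and gallbladder, differentiated, liver and small intestine organoids gave 10.46 and 10.34, 9.75 and 9.72, 11.06 and 11.03, and 10.71 and 11.31. Pfkm varied less, from 8.12 and 8.35 in small intestine tissue to 9.55 and 9.43 in small intestine organoids. Pfkfb3 and Pfkfb4 make or break fructose 2,6-bisphosphate, the activator of phosphofructokinase. Pfkfb4 was high in small intestine material, at 10.97 and 10.90 in organoids and 10.90 and 10.71 in tissue, and from 7.02 to 8.85 log2 units on the 10 other arrays. Pfkfb3 split the liver tissue arrays, at 10.77 and 7.76, and was called in no comparison.

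Aldolase, triosephosphate isomerase, phosphoglycerate kinase and mutase, and enolase act on the sugar phosphates that follow. Tpi1 (triosephosphate isomerase) stayed between 12.18 and 13.19 log2 units. Aldoa, the main aldolase, lay between 12.93 and 13.62 in organoids and at 12.22 and 11.72 in liver tissue. Aldoc, the brain-type aldolase, was 12.25 and 12.20 in liver organoids, 12.06 and 12.19 in small intestine organoids, 11.23 and 10.98 in gallbladder organoids, 10.41 and 10.54 in differentiated organoids, and 9.44 to 10.74 in the tissues. Pgk1 and Pgam1, which make ATP and shift the phosphate, were lowest in gallbladder tissue (10.71 and 11.54, and 11.23 and 11.38). Eno3, the muscle enolase, was highest in small intestine tissue (8.97 and 8.89) and lowest in gallbladder organoids (7.15 and 7.11).

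Pyruvate kinase, the last step, has a general gene, Pkm, and a liver and red cell gene, Pklr. Pkm was between 12.37 and 12.73 log2 units on all 8 organoid arrays and 12.16 and 12.71 in small intestine tissue, but 11.05 and 10.74 in gallbladder tissue and 9.81 and 9.92 in liver tissue. Pklr was lowest in gallbladder organoids (9.74 and 9.87), higher in differentiated organoids (11.23 and 11.36) and liver organoids (11.36 and 11.41), and highest in small intestine organoids (12.80 and 12.88). In tissue it gave 10.92 and 11.41 (gallbladder), 11.87 and 13.20 (liver) and 12.50 and 12.62 (small intestine). Neighbouring groups in that order overlapped where the gap between means was small, as with differentiated organoids, liver organoids and gallbladder tissue. Ldha, the lactate-forming lactate dehydrogenase subunit, stayed between 12.59 and 14.17 log2 units in every group. Ldhb, the subunit of lactate-using tissues, was highest in gallbladder tissue (8.94 and 9.23) and lowest in small intestine organoids (6.63 and 6.70), with 8.10 and 8.15 in gallbladder, 7.34 and 7.15 in differentiated and 7.22 and 7.13 in liver organoids, 7.45 and 7.97 in liver tissue and 7.93 and 7.86 in small intestine tissue. In all, 7 members had more than 1 probe set, and some glycolytic genes have near-identical copies in the genome that a probe set cannot separate.

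The pyruvate dehydrogenase kinases block the entry of pyruvate into the citric acid cycle. Pdk1, the HIF target among them, was 9.26 and 9.15 log2 units in gallbladder organoids, 8.87 and 9.02 in differentiated, 10.31 and 10.33 in liver and 10.60 and 10.79 in small intestine organoids. In tissue it was 9.14 and 9.16 (gallbladder), 10.19 and 10.61 (liver) and 9.11 and 8.93 (small intestine), so small intestine was the organ in which organoids and tissue were far apart. Pdk2 was lowest in gallbladder organoids (10.38 and 10.36) and highest in small intestine tissue (12.29 and 12.27). Pdk4, a gene of fasting and fat use, was 5.94 and 6.28 in gallbladder organoids and 5.83 and 6.22 in differentiated organoids, and at least 8.52 on every other array, up to 11.20 and 10.21 in small intestine tissue.

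Among the hypoxia genes, Bnip3 encodes a mitochondrial protein of mitophagy. It was 11.42 and 10.93 log2 units in gallbladder organoids, 8.14 and 9.0 in differentiated, 11.75 and 11.68 in liver and 10.12 and 10.91 in small intestine organoids, and 10.15 and 11.60, 13.20 and 13.02, and 10.02 and 10.45 in gallbladder, liver and small intestine tissue. The differentiated arrays were below all others. The second Bnip3 probe set showed the same split, at 10.10 and 9.85 in gallbladder organoids and 7.76 and 8.27 in differentiated ones. P4ha1 and P4ha2 encode catalytic subunits of collagen prolyl 4-hydroxylase, which matures collagen. P4ha1 was 10.15 and 9.96 in gallbladder organoids, 8.45 and 8.48 in differentiated, 10.23 and 10.12 in liver and 8.30 and 8.94 in small intestine organoids, and 7.72 to 9.26 in tissue. P4ha2 was 9.87 and 9.65, 8.81 and 8.80, 10.28 and 10.28, and 7.03 and 7.44 in the same order, and 6.83 to 7.59 in tissue. Gallbladder and liver organoids were above every other group for both genes.

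Egln1 and Egln3 are the oxygen-sensing hydroxylases themselves, and both are induced by HIF. Egln3 was 12.92 and 12.65 log2 units in gallbladder organoids, 11.85 and 11.99 in differentiated, 13.25 and 13.28 in liver and 10.13 and 11.22 in small intestine organoids, and 12.04 and 11.40, 10.78 and 9.83, and 10.65 and 11.21 in gallbladder, liver and small intestine tissue. Egln1 moved over less than 1 log2 unit, from 9.46 to 10.26. Car9, the membrane carbonic anhydrase that exports acid, was 12.89 and 12.84 in gallbladder organoids, 12.02 and 11.95 in differentiated, 12.54 and 12.49 in liver and 11.50 and 11.95 in small intestine organoids. Its log2 signal was as high in gallbladder tissue (12.73 and 12.38), lower in small intestine tissue (9.82 and 11.02) and lowest in liver tissue (6.86 and 6.60). The liver tissue arrays were below all 12 others.

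The other hypoxia genes did not share one order. Ak4, a mitochondrial adenylate kinase, was 10.19 and 9.83 log2 units in gallbladder organoids, 7.20 and 8.05 in differentiated, 11.14 and 11.26 in liver and 11.40 and 11.93 in small intestine organoids, and 7.67 and 10.84, 11.57 and 12.41, and 6.77 and 7.27 in gallbladder, liver and small intestine tissue. Its gallbladder tissue arrays differed by 3.17. The second Ak4 probe set spanned less, from 7.33 to 10.59 log2 units. It read 8.51 and 8.45 in gallbladder and 7.42 and 7.68 in differentiated organoids. In small intestine it read 9.22 and 9.78 in organoids and 7.49 and 7.33 in tissue. The size of the Ak4 differences below thus depends on the probe set. Ndrg1, a stress-response gene, was 12.91 on both liver organoid arrays and 13.04 and 12.95 on the small intestine organoid arrays, 11.30 and 11.30 in gallbladder organoids, 11.59 and 11.61 in differentiated organoids, and 10.65 and 9.56 in liver tissue. Vegfa, the endothelial growth factor, ranged from 10.34 in a small intestine organoid array to 12.21 in a liver tissue array. Adm (adrenomedullin, a vasodilator peptide) was 8.25 and 8.05 in gallbladder, 6.73 and 7.02 in differentiated, 8.89 and 9.16 in liver and 6.70 and 7.30 in small intestine organoids. Ankrd37, an ankyrin repeat gene, was 8.10 and 7.81, 7.10 and 7.31, 8.61 and 8.60, and 7.45 and 8.43 in the same order. The 2 liver tissue arrays differed by up to 2.11 log2 units in these genes (Ankrd37 9.32 and 7.22, Adm 8.87 and 6.91, Vegfa 12.21 and 10.91), and 9 of 11 hypoxia genes were lower in replicate 2.

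**Figure D3:**
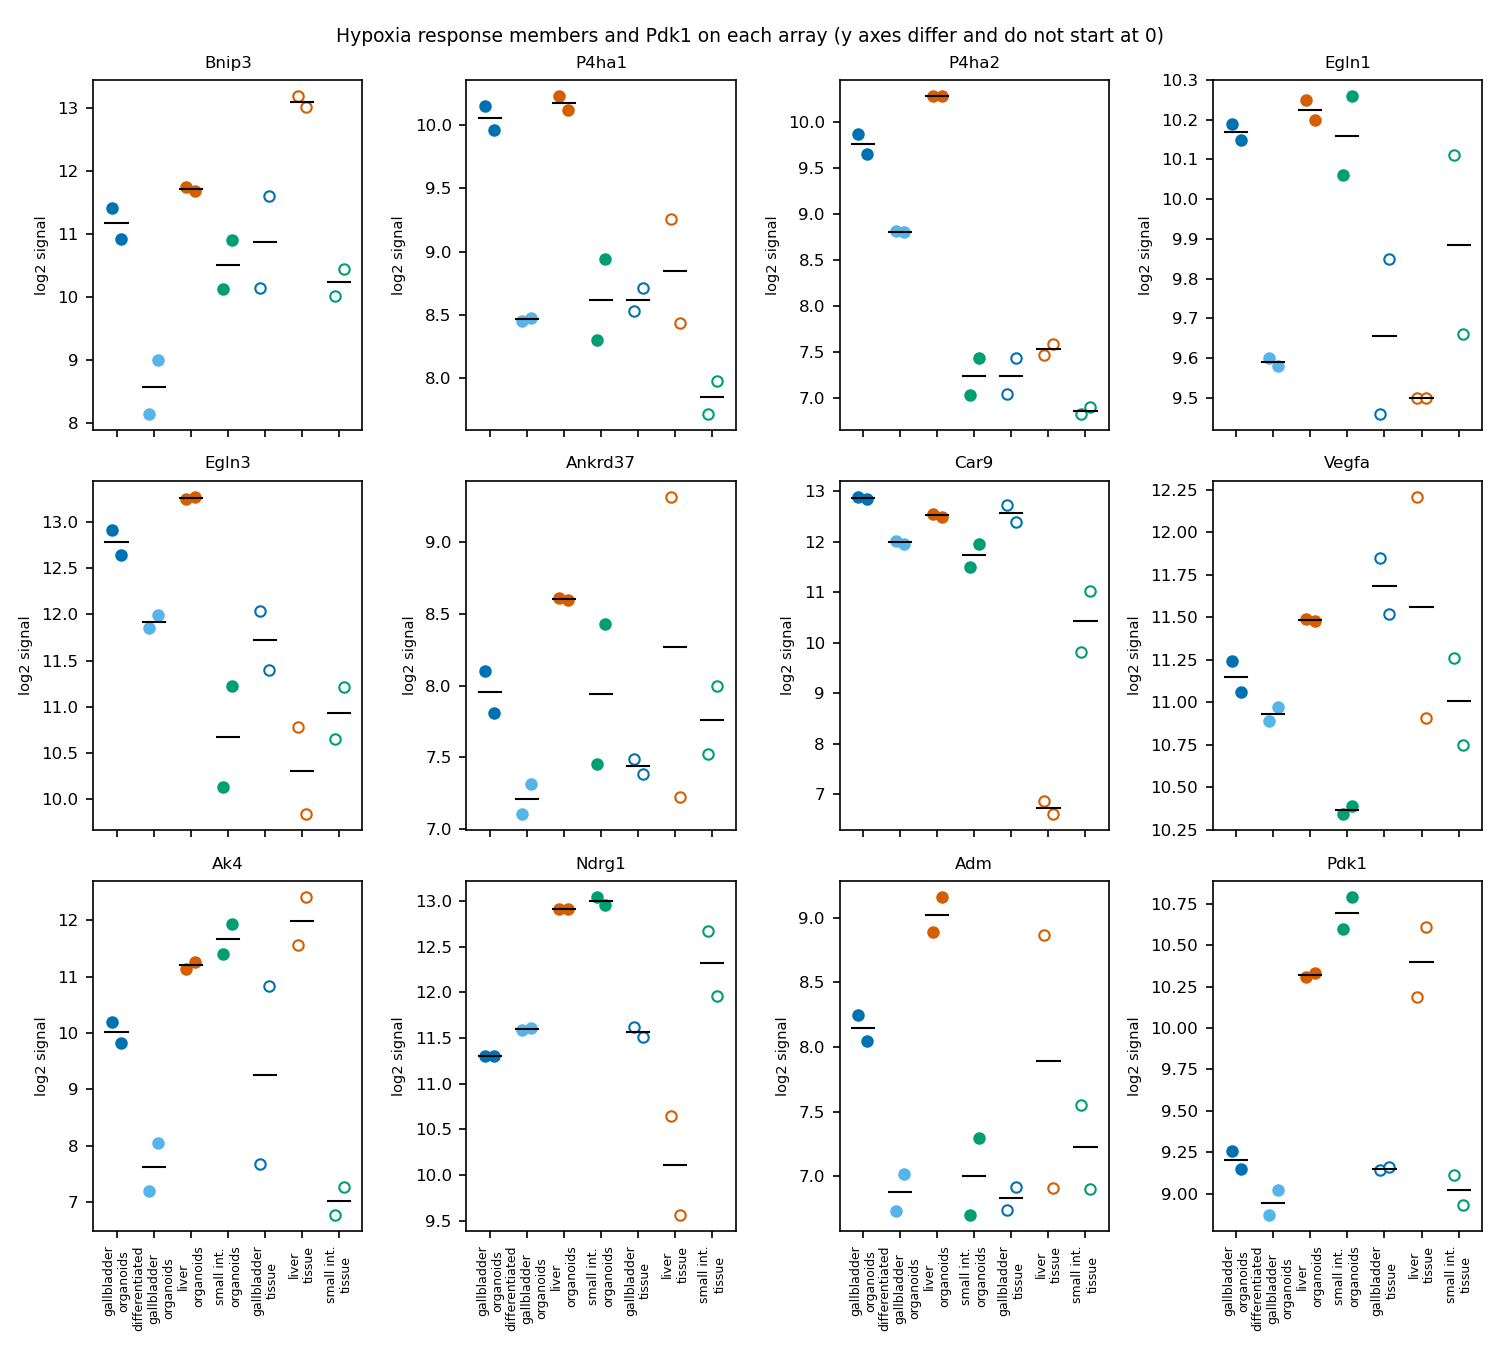
Log2 signals of the 11 hypoxia genes and Pdk1 on each array (y axes differ between panels and do not start at 0); filled points are organoids, open points tissues, bars the mean of 2 arrays. Differentiated gallbladder organoids (second position) lie below gallbladder organoids (first position) on both arrays for every gene shown but Ndrg1. The share of all genes that separate in this way was not taken, and 3 of the 11 hypoxia genes were called in this comparison.

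Comparisons were made with limma's moderated test on all 14 arrays, and a gene was called at a Benjamini-Hochberg adjusted p below 0.05 over the 19938 genes. Differences are log2 units ± standard error with 2 arrays per group. Where 2 groups were compared, the arrays of every called member did not overlap. The share of all genes with such arrays was not taken, so this adds nothing to the calls. With 2 arrays in each group, exact permutation gives no p below 0.333.

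Removal of R-spondin 1, noggin and nicotinamide went with a lower signal of some hypoxia genes. Between differentiated and undifferentiated gallbladder organoids 6 of 34 members were called (2 higher, 4 lower), against 4.73% of all genes, 2.8% higher and 1.93% lower. Bnip3 (-2.60 ± 0.45, adjusted p = 0.00869), P4ha1 (-1.59 ± 0.26, 0.00674) and P4ha2 (-0.95 ± 0.16, 0.00745) were the 3 of 11 hypoxia genes called, all lower, and Ldhb was lower too (-0.87 ± 0.16, 0.0133). Pklr (1.48 ± 0.33, 0.031) and Eno3 (0.50 ± 0.11, 0.0314) were higher. Of the hypoxia genes 10 of 11 had a negative difference, with a median of -0.88 against -0.04 for all genes. At an unadjusted p below 0.05 were 7 of the 11. The share of all genes at that threshold was not taken, so this count says nothing about the hypoxia genes. Not called were Ak4 (-2.38 ± 0.79, adjusted p = 0.143), Adm (-1.28 ± 0.50, 0.225), Car9 (-0.88 ± 0.31, 0.181), Egln3 (-0.86 ± 0.39, 0.306) and Ankrd37 (-0.75 ± 0.55, 0.583). Gluconeogenic genes stayed low, with Fbp1 at -0.35 ± 0.51 (adjusted p = 0.835).
Without differentiated array 1 or gallbladder organoid array 1, 0 members were called; without differentiated array 2, 1; and without gallbladder organoid array 2, 3. Without either liver tissue array 10 were called. Bnip3 was not called without differentiated array 1 or gallbladder organoid array 1 (-2.18 and -2.36, adjusted p 0.102 and 0.1), and P4ha1 (-1.61 to -1.49, 0.0596 to 0.0777) and P4ha2 (-0.96 to -0.85, 0.0678 to 0.0941) were not called without either differentiated array or gallbladder organoid array 1. Ldhb was not called without any 1 of the 4 arrays compared (adjusted p 0.0634 to 0.146), and Eno3 (0.0513 to 0.297) and Pklr (0.0554 to 0.22) without any 1 of the 8 organoid arrays. Fitting only these 2 groups, whose replicates lie closer together than the tissues', called 21 members (5 higher, 16 lower) against 26.8% of all genes. Array weights called 17 (3 higher, 14 lower) against 28.7%. With the mean over its probe sets Ldhb was not called by limma (-0.70, adjusted p = 0.0532).

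Against gallbladder tissue, gallbladder organoids had higher signal of 9 of 17 glycolysis genes and lower signal of the 3 listed gluconeogenic genes. Called were 21 of 34 members (13 higher, 8 lower), against 47.9% of all genes, 32.7% higher and 15.2% lower; the median of all genes was itself 0.17. Of 17 glycolysis genes 9 rose and 3 fell. Hk2 rose by 2.34 ± 0.26 (5.06-fold, adjusted p = 6.17e-05), Pgk1 by 1.56 ± 0.24 (0.000513), Pfkl by 1.50 ± 0.23 (0.000448), Pkm by 1.47 ± 0.17 (7.49e-05) and Pgam1 by 1.22 ± 0.18 (0.000378), while Pklr changed by -1.36 ± 0.33 (0.00728) and Ldhb by -0.96 ± 0.16 (0.000986). All 3 gluconeogenic genes fell: Fbp1 by 6.66 (-6.66 ± 0.51, 101-fold, 5.41e-06), Pck1 by 4.34 (-4.34 ± 0.69, 0.000621) and G6pc by 3.53 (-3.53 ± 0.60, 0.000949). All 10 hepatocyte markers were called lower in the same comparison, and their part in this result was not tested. Without gallbladder tissue replicate 2, which had the higher hepatocyte signal, the changes were -5.85, -3.29 and -2.77. Replicate 1, the array kept, still had a hepatocyte marker mean of 12.81 log2 units, so this step does not take that signal away. Pdk4 (-2.62 ± 0.34, 0.000166) and Pdk2 (-1.17 ± 0.12, 3.73e-05) fell. Of the hypoxia genes 4 rose, led by P4ha2 (2.53 ± 0.16, 1.66e-06) and P4ha1 (1.43 ± 0.26, 0.00147), while Bnip3 (0.30 ± 0.45, adjusted p = 0.611), Ankrd37 (0.52 ± 0.55, 0.456), Car9 (0.31 ± 0.31, 0.448) and Vegfa (-0.54 ± 0.33, 0.211) were not called.
Leaving out 1 array ended 7 of these 21 calls. Egln3 (1.06 ± 0.39, adjusted p = 0.0465) was no longer called without any of 7 arrays, which were the gallbladder, differentiated and liver organoid arrays and gallbladder tissue array 2 (0.0647 to 0.22), and Egln1 (0.52 ± 0.16, 0.024) without either gallbladder organoid array or gallbladder tissue array 1 (0.081 to 0.151). Pfkfb4 ended without either gallbladder organoid array or gallbladder tissue array 2 (0.0679 to 0.109), and Eno3 without gallbladder organoid array 2 or gallbladder tissue array 2 (0.0626 to 0.0652). Hk1 (without gallbladder organoid array 2, 0.0646), Pfkp (without array 1, 0.0501) and Aldoc (without array 1, 0.0732) ended without 1 gallbladder organoid array. Differentiated gallbladder organoids differed from gallbladder tissue in 15 members (8 higher, 7 lower; of all genes 42.7%, 28.6% higher and 14.1% lower), with Hk2 at 2.32 ± 0.26, Pkm at 1.55 ± 0.17, Fbp1 at -7.01 ± 0.51 and Bnip3 at -2.30 ± 0.45 (adjusted p = 0.00243). Of these, Hk1 and Pfkl ended without either differentiated array or gallbladder tissue array 2 (0.0604 to 0.0901 and 0.0678 to 0.112) and Pfkfb4 without differentiated array 2 or gallbladder tissue array 2 (0.0657 to 0.0703). Pgk1 (1.03) fell to 0.62 without gallbladder tissue array 1 and stayed called. With only these 2 groups fitted, Pgk1 (adjusted p = 0.0684) and Bnip3 (0.0502) were not called. The 2 organoid comparisons share the gallbladder tissue arrays.

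In liver, Car9 was the member that rose most in organoids against tissue and Fbp1 the one that fell most. Called were 21 of 34 members (14 higher, 7 lower), against 44.9% of all genes, 26.7% higher and 18.2% lower. Car9 rose by 5.78 ± 0.31 (55.1-fold, adjusted p = 3.7e-07), Pfkp by 3.45 ± 0.19 (3.79e-07), Egln3 by 2.96 ± 0.39 (0.000136), Ndrg1 by 2.80 ± 0.30 (3.64e-05), Pkm by 2.79 ± 0.17 (6.61e-07) and P4ha2 by 2.75 ± 0.16 (5.57e-07). Fbp1 (-8.33 ± 0.51, 321-fold, 7.43e-07), G6pc (-6.66 ± 0.60, 101-fold, 9.92e-06) and Pck1 (-6.06 ± 0.69, 66.6-fold, 4.76e-05) fell. All 10 hepatocyte markers were called lower here too, and their mean was 6.88 and 6.84 in liver organoids. All 7 biliary epithelium markers were called higher in liver organoids, with a median difference of 5.32. The part of either list in the differences of Car9 and the other members was not tested. Among 11 hypoxia genes 6 rose and Bnip3 changed by -1.39 ± 0.45 (adjusted p = 0.0284), with Vegfa at -0.07 ± 0.33 (0.89) and Ankrd37 at 0.34 ± 0.55 (0.674). Leaving out 1 array ended 4 calls. Bnip3 ended without any 1 of the 4 arrays compared (-1.48 to -1.30, adjusted p 0.0721 to 0.111), Pklr and Ldhb without liver tissue array 2 or either liver organoid array (0.0609 to 0.0706 and 0.0585 to 0.167), and Hk1 without any of 9 arrays, the 8 organoid arrays and liver tissue array 1 (0.0686 to 0.21). Pklr was -1.81 without liver tissue array 1. With the mean over its probe sets Ldhb was -0.32 and not called by limma (adjusted p = 0.175).

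In small intestine, Pck1 alone of the 3 listed gluconeogenic genes was called between organoids and tissue. Called were 14 of 34 members (8 higher, 6 lower), against 35.8% of all genes, 20.2% higher and 15.6% lower, so the share was near the background. Ak4 rose by 4.64 ± 0.79 (adjusted p = 0.00109), Aldoc by 2.04 ± 0.31 (0.000581), Pdk1 by 1.68 ± 0.14 (3.19-fold, 1.64e-05), Pfkl by 1.58 ± 0.23 (0.000376), Car9 by 1.31 ± 0.31 (0.0084) and Pfkm by 1.25 ± 0.13 (5.49e-05). Pck1 changed by -3.82 ± 0.69 (0.00154), Pdk4 by -1.89 ± 0.34 (0.00146) and Ldhb by -1.23 ± 0.16 (0.000243). Fbp1 (0.91 ± 0.51, adjusted p = 0.205), G6pc (0.27 ± 0.60, 0.79), Hk2 (0.03 ± 0.26, 0.943), Pkm (0.04 ± 0.17, 0.894) and Ldha (-0.17 ± 0.24, 0.671) were not called. Without small intestine tissue array 2, which had the acinar signal, Pck1 was -4.80, and without array 1 it was -2.84, called either way. Calls of 4 members ended without 1 array: P4ha1 (0.77 ± 0.26, 0.0426) without any of 9 arrays, which were 7 of the 8 organoid arrays and both small intestine tissue arrays (0.06 to 0.318); Pfkp (-0.63 ± 0.19, 0.0244) without either small intestine tissue array or small intestine organoid array 1 (0.0688 to 0.209); Hk1 without small intestine organoid array 1 (0.0515); and Car9 without small intestine organoid array 2 (0.0756). Car9 was 0.71 without small intestine tissue array 1. With the other Hk1 probe set the Hk1 difference turned from 0.41 to -0.23 (adjusted p = 0.469), while in liver the difference kept its sign and was larger (10.79 and 10.93 in organoids against 7.92 and 7.81 in tissue, 1.99e-06).
Over the 3 organs 4 members were higher in organoids each time (Hk1, Pfkl, Aldoc and P4ha1), 3 were lower each time (Ldhb, Pck1 and Pdk2), and 6 were called in none (Pfkfb3, Tpi1, Ldha, Ankrd37, Vegfa and Adm). Of all genes 6.8% were higher each time, 3% were lower each time and 26.5% were called in none, against 11.8%, 8.82% and 17.6% of the members; with so few members these shares are a description, and no test was made on them. Of these, Pfkl, Pck1 and Pdk2 kept their call in all 3 organs without any 1 array. The Ldhb call in liver ended with the mean over its probe sets (-0.32, adjusted p = 0.175). Pfkp was higher in organoids of gallbladder and liver and lower in those of small intestine.

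**Figure D4:**
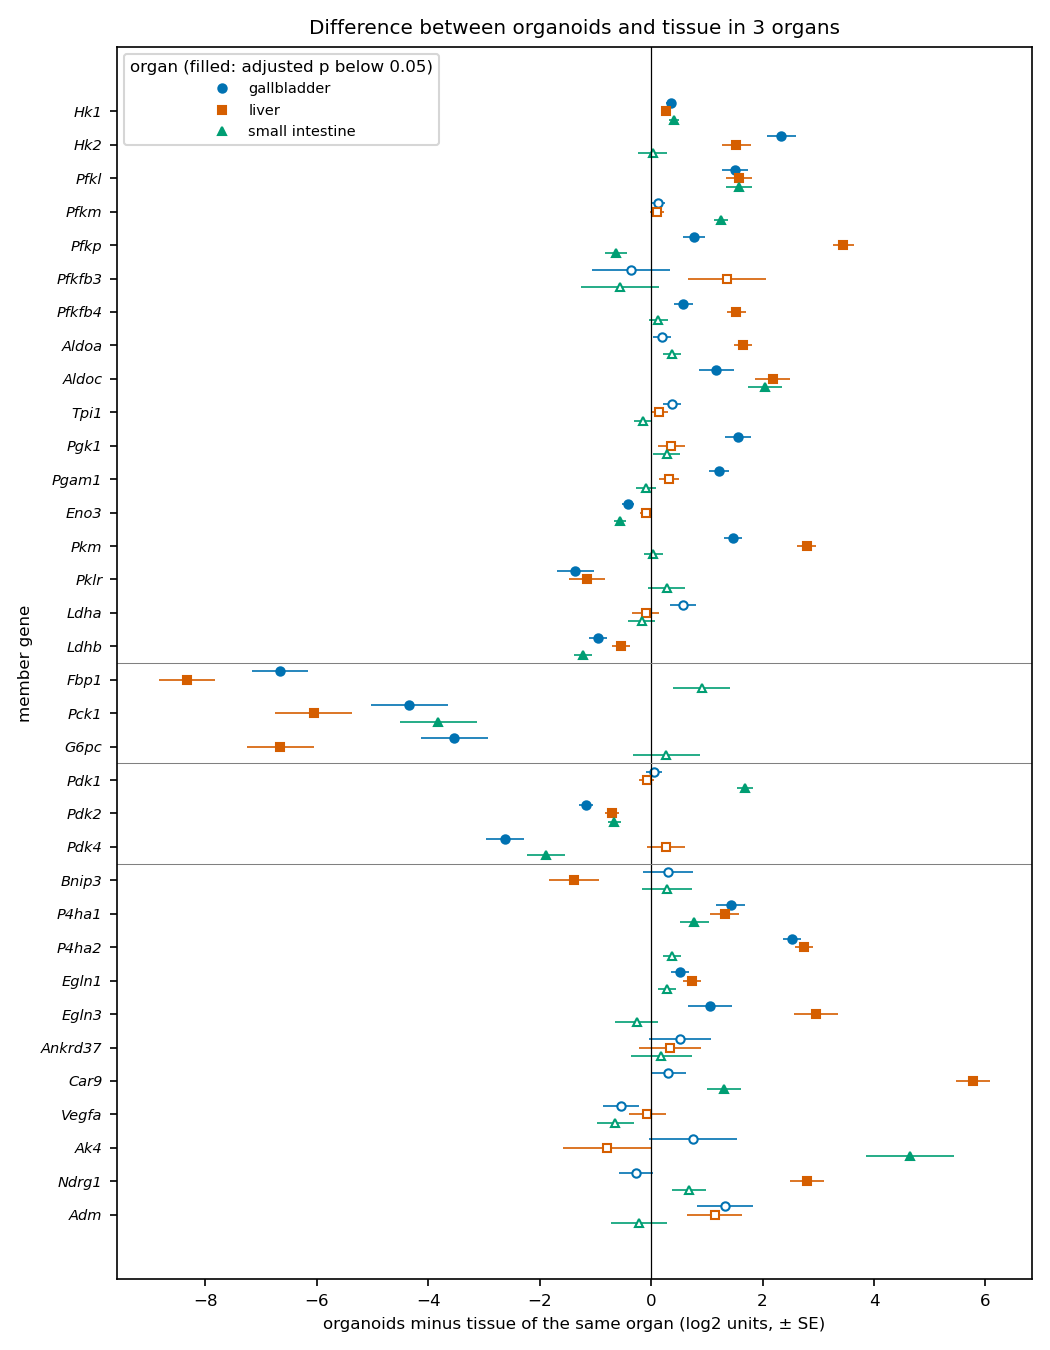
Log2 difference between organoids and tissue of the same organ for each measured gene, ± standard error, in gallbladder (circles), liver (squares) and small intestine (triangles); filled symbols have an adjusted p below 0.05. Fbp1 and G6pc lie far to the left in gallbladder and liver but near 0 in small intestine, and Car9 lies far to the right in liver.

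Whether organoids and tissue differed by unequal amounts between organs was tested as an interaction in the same model. The gallbladder and liver differences were unequal for 11 of 34 members (3 higher, 8 lower; of all genes 39.8%, 22.7% higher and 17.1% lower), with the largest for Car9 (-5.48 ± 0.45, adjusted p = 1.87e-05), G6pc (3.13 ± 0.85, 0.0154), Ndrg1 (-3.07 ± 0.43, 0.000501), Pdk4 (-2.89 ± 0.48, 0.00123) and Pfkp (-2.67 ± 0.27, 6.34e-05). The differences of Car9, Ndrg1 and Pfkp were larger in liver, where all 3 rose, and Pdk4 fell in gallbladder and was not called in liver (0.26 ± 0.34). G6pc fell in both organs, by more in liver, and its interaction was not called without gallbladder organoid array 1 or liver organoid array 2 (0.0537 to 0.0545). Gallbladder and small intestine were unequal for 13 (6 higher, 7 lower; 36.6%, 22.3% higher and 14.3% lower), with the largest for Fbp1 (-7.57 ± 0.72, 6.69e-05), Ak4 (-3.89 ± 1.11, 0.0217), G6pc (-3.81 ± 0.85, 0.00686) and Hk2 (2.30 ± 0.36, 0.00115). The Ak4 term was not called without either gallbladder organoid array, small intestine tissue array 1 or small intestine organoid array 2 (0.05 to 0.0728), and it was -2.30 without gallbladder tissue array 2. Liver and small intestine were unequal for 18 (12 higher, 6 lower; 35.2%, 19% higher and 16.2% lower), with the largest for Fbp1 (-9.24 ± 0.72, 8.28e-06), G6pc (-6.94 ± 0.85, 0.000151) and Ak4 (-5.43 ± 1.11, 0.00351). The members' shares were 32.4%, 38.2% and 52.9% in that order, so the first lay below the background, the second near it and the third above it. For Pck1 the interaction was called in none of the 3. The 10 hepatocyte markers were all called, lower, in both contrasts with small intestine.

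Between organoids of different organs the medium was shared. Gallbladder and liver organoids differed in 8 of 34 members (1 higher, 7 lower in gallbladder), against 12.7% of all genes, 6.17% higher and 6.52% lower. The 3 listed pyruvate dehydrogenase kinases were all lower in gallbladder organoids. The differences were -2.83 ± 0.34 for Pdk4 (adjusted p = 0.000618), -1.11 ± 0.14 for Pdk1 (0.000946) and -0.85 ± 0.12 for Pdk2 (0.00153). Pdk3, a kinase of this family that is not a member, did not share this. It read 8.78 and 8.99 log2 units in gallbladder and 8.75 and 8.99 in liver organoids. Ndrg1 (-1.61 ± 0.30, 0.00773), Pklr (-1.57 ± 0.33, 0.0127), Aldoc (-1.12 ± 0.31, 0.0431) and Eno3 (-0.61 ± 0.11, 0.00676) were lower and Ldhb higher (0.95 ± 0.16, 0.00483). Among the hypoxia genes 10 of 11 were lower in gallbladder organoids, with a median of -0.52 against 0.05 for all genes, but Ndrg1 alone was called. Leaving out 1 array ended 4 calls: Aldoc without any of 10 arrays, the 8 organoid and 2 liver tissue arrays (adjusted p 0.0518 to 0.23); Pklr without any 1 of the 4 arrays compared (0.0659 to 0.0911); Ndrg1 without either gallbladder organoid array or liver organoid array 2 (0.0572 to 0.0591); and Eno3 without gallbladder organoid array 2 or liver organoid array 1 (0.0537 to 0.0621). The number called was 4 to 12 over all arrays left out in turn, and was 4 or 5 without any 1 of the 4 arrays compared. It was 26 with only these 2 groups fitted (35.6% of all genes) and 19 with array weights (37.1%).

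Small intestine organoids stood apart from both. Against them, 17 of 34 members differed in gallbladder organoids (5 higher, 12 lower; of all genes 35.6%, 20.2% higher and 15.4% lower) and 14 in liver organoids (8 higher, 6 lower; 26.5%, 14.2% higher and 12.2% lower). Fbp1 was lower by 6.59 in gallbladder organoids (-6.59 ± 0.51, adjusted p = 5.38e-06) and by 6.93 in liver organoids (-6.93 ± 0.51, 3.78e-06), and G6pc by 4.47 and 5.25 (-4.47 ± 0.60 and -5.25 ± 0.60). Pfkfb4 was lower by 2.34 and 2.21, and Pklr by 3.03 and 1.46. P4ha2 was higher by 2.52 ± 0.16 and 3.04 ± 0.16 (1.46e-06 and 3.74e-07), Egln3 by 2.11 ± 0.39 and 2.59 ± 0.39, and P4ha1 by 1.44 ± 0.26 and 1.55 ± 0.26. Pdk1 was lower in gallbladder organoids (-1.49 ± 0.14, 2.47e-05). The 2 comparisons share the small intestine organoid arrays.
In the gallbladder comparison 3 calls ended without 1 array: Pfkp without either gallbladder organoid array or small intestine array 2 (adjusted p 0.0807 to 0.245), Aldoc without any 1 of the 4 arrays compared (0.0711 to 0.15) and Car9 (1.13 ± 0.31, 0.0181) without either gallbladder organoid array or small intestine array 1 (0.0749 to 0.125). In the liver comparison 7 ended, and 8 or 9 members were called without any 1 of the 4 arrays compared. Pgam1 (0.0504 to 0.244), Ldhb (0.0597 to 0.193) and Pdk2 (0.0503 to 0.178) ended without any 1 of the 8 organoid arrays, Vegfa (1.12 ± 0.33) without any 1 of the 4 compared (0.115 to 0.128), Aldoa without either liver organoid array or small intestine array 1 (0.0971 to 0.175), Adm (2.03 ± 0.50) without small intestine array 1 or liver organoid array 2 (0.0807 to 0.0964) and Pklr without small intestine array 2 (0.0518).

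Among the tissues, gallbladder and liver differed in 19 of 34 members (8 higher, 11 lower in gallbladder; of all genes 48.1%, 20.7% higher and 27.4% lower). Car9 was higher in gallbladder by 5.82 ± 0.31 (adjusted p = 8.65e-07) and Pfkp by 2.03 ± 0.19 (2.32e-05), while Ak4 (-2.73 ± 0.79, 0.0165), G6pc (-2.35 ± 0.60, 0.00924), Bnip3 (-2.24 ± 0.45, 0.00265) and Pgk1 (-1.80 ± 0.24, 0.000229) were lower. Calls of 7 members ended without 1 array: Pfkm and Pdk2 without liver tissue array 2 or either gallbladder array (0.056 to 0.166 and 0.0582 to 0.15), Ldha without array 1 of either tissue (0.0962 to 0.102), Egln3 and Ak4 without liver array 2 or gallbladder array 1 (0.0908 to 0.104 and 0.0598 to 0.091), Tpi1 without liver array 1 (0.0628) and G6pc without gallbladder array 1 (-1.58, 0.0734). Ak4 was -4.32 without gallbladder array 2, and without liver array 2 Pklr was -0.71 and Ndrg1 0.91. With only these 2 groups fitted 10 members were called, against 19.2% of all genes; Pfkfb4, Pklr and Ndrg1, whose calls stood without each array in turn, were then not called (0.0716, 0.114 and 0.0634), and Bnip3 was not called with array weights (0.0508).
Gallbladder and small intestine tissue differed in 17 members (5 higher, 12 lower in gallbladder; of all genes 45%, 20.7% higher and 24.3% lower), with Pfkfb4 at -2.78 ± 0.17 (9.66e-07), Pfkp at -2.01 ± 0.19, Hk2 at -1.69 ± 0.26, Pkm at -1.54 ± 0.17 and Car9 at 2.13 ± 0.31 (0.000393); 10 were called with only these 2 groups fitted (16.2%), which ended the calls of Pfkm, Tpi1, Pgk1 and Pgam1 (0.0515 to 0.101) among others. Ak4 (2.24 ± 0.79) ended without any of 11 arrays, which were the 8 organoid arrays, both small intestine tissue arrays and gallbladder tissue array 2 (0.0533 to 0.243), and it was 3.82 without gallbladder array 1. P4ha1 ended without any of 8 arrays, the differentiated and liver organoid arrays and the 4 compared (0.0506 to 0.147), and Ldha without gallbladder array 1 (0.0845).
Liver and small intestine tissue differed in 18 members (8 higher, 10 lower in liver; of all genes 37.5%, 18.7% higher and 18.8% lower). Ak4 (4.97 ± 0.79), Bnip3 (2.88 ± 0.45) and Fbp1 (2.31 ± 0.51) were higher in liver, and Pfkp (-4.04 ± 0.19), Car9 (-3.69 ± 0.31), Pfkfb4 (-3.61 ± 0.17) and Pkm (-2.57 ± 0.17) were lower. G6pc (1.69 ± 0.60, adjusted p = 0.0495) ended without any of 11 arrays, which were the 8 organoid arrays, both liver tissue arrays and small intestine tissue array 2 (0.068 to 0.356), and it was 2.72 without small intestine tissue array 1. Pdk2 ended without any of 9 arrays, which were the gallbladder, differentiated and liver organoid arrays, both small intestine tissue arrays and liver tissue array 1 (0.0515 to 0.225), P4ha1 without array 1 of either tissue (0.0665 to 0.0898) and Hk2 without liver array 2 (0.0626); Hk2 was -0.57 without small intestine array 1, and without liver array 2 Aldoa was -0.46 and Pdk2 -0.56. Aldoa was not called with only these 2 groups fitted (0.0933), nor P4ha2 with array weights (0.101).

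**Figure D5:**
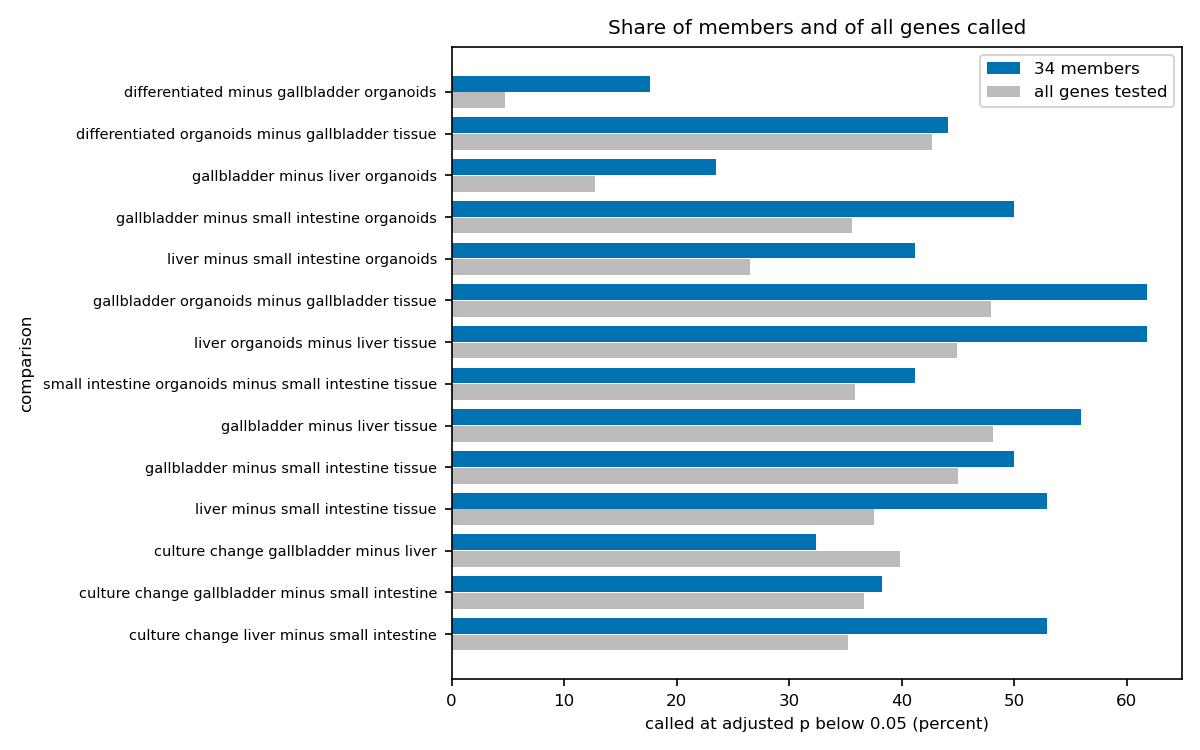
Percent of the 34 measured members (blue) and of all 19938 genes (grey) called at an adjusted p below 0.05 in each of the 14 comparisons; culture change is organoids minus tissue, compared between organs. The members exceed the background most in relative terms between differentiated and undifferentiated gallbladder organoids, at 17.6% against 4.73%. They lie below it for the gallbladder and liver culture changes. Members were chosen with earlier results of these data known, so these shares are a description, and no test was made on them.

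Other genes of the same pathways were followed as 2 further lists, 22 measured genes of glucose metabolism and 23 of the hypoxia response. Between differentiated and undifferentiated gallbladder organoids 1 of 22 and 0 of 23 were called by limma, against 4.73% of all genes. The 1 was Fbp2, the muscle fructose-1,6-bisphosphatase (1.57, adjusted p = 0.000666). At an unadjusted p below 0.05 were 4 of the 23. The share of all genes at that threshold was not taken, so this count cannot be read either way. In gallbladder organoids against tissue 4 of 22 rose and 7 fell, and 7 of 23 rose and 4 fell (of all genes 32.7% rose and 15.2% fell), with the secreted glycoprotein Stc2 at 3.01 (3.02e-07), the lactate exporter Slc16a3 at 2.60 (0.000584) and the glycogen synthase Gys2 at -5.06 (0.000299). In liver 10 of 22 rose and 8 fell, and 9 of 23 rose and 7 fell (of all genes 26.7% and 18.2%), with Hif3a at 3.91 (9.46e-07) and the glucokinase regulator Gckr at -5.53 (6.58e-05). Hif3a, a HIF alpha subunit, read 10.53 and 10.48 log2 units in liver organoids and at most 7.25 on every other array. In small intestine 4 of 22 rose and 5 fell, and 5 of 23 rose and 4 fell (of all genes 20.2% and 15.6%). Pck2, the mitochondrial carboxykinase, was higher there by 1.74 (adjusted p = 5.02e-06) while Pck1 fell. Liver and gallbladder showed this too. Pck2 read 10.43 and 10.45 log2 units in liver organoids against 8.48 and 8.66 in liver tissue. It read 10.1 and 10.14 in gallbladder organoids against 9.09 and 8.97 in gallbladder tissue.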

How the data were processed

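RNA of 14 samples was measured on 1 Affymetrix array each. The authors deposited log2 signals per probe set; per the submitters' processing notes these come from robust multi-array averaging (RMA), with version and genome build not given in the sources used here. RMA sets all arrays to a common distribution, so a shift of all genes cannot be seen, and the noise floor is unknown for want of detection calls. Of 35556 probe sets, 21789 named 1 gene, and the probe set with the highest mean per gene left 19938 genes. Groups came from the sample titles.

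Linear models with a mean for each group, fitted over the 14 arrays, came from limma 3.58.1 (R 4.3.3), with 9.91 total degrees of freedom; 3 contrasts compared organoid-tissue differences between organs. Tests were 2-sided, adjusted by Benjamini-Hochberg over all genes and called below 0.05. The number of arrays, 2 per group, limits the precision. On simulated data with planted changes between the differentiated and gallbladder organoid arrays, 0 of 50 genes changed by 0.5, 31 of 50 by 1 and 50 of 50 by 2 log2 units were called. In the measured data, differences above 2 log2 units were not all called in this comparison. Bnip3 was called (group means 8.57 in differentiated and 11.17 in gallbladder organoids), but Ak4 was not (7.63 and 10.01). Whether the planted rates hold for genes with a wide spread between replicate arrays was not tested.

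Members and lists were chosen with earlier results of these data known. Values were given for all members by role, with at most 3 genes per direction from the other pathway lists. Genes of those lists and markers were chosen in the same way. Alternatives were centring, a dim-gene filter, the mean over probe sets, fitting only the groups compared, array weights, a replicate block and leaving out each array. Promoter letters are from RefSeq (GRCm38.p6), and 36 of 37 members had a window. Replicate numbers were not treated as pairs, since same-numbered arrays did not deviate together.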

Additional observations from a re-analysis of the deposited data

Results flagged for a closer look

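Differences between organoids and tissue that were unequal between 2 organs by limma's interaction test (adjusted p below 0.05, log2 units, first organ minus second) are given here. No cause was tested, and the hepatocyte and other marker levels given in the report move with several of them.

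Gallbladder minus liver was higher for G6pc (3.13), Pgk1 (1.20) and Pgam1 (0.90). It was lower for Car9 (-5.48), Ndrg1 (-3.07), Pdk4 (-2.89), Pfkp (-2.67), Egln3 (-1.90), Aldoa (-1.45), Pkm (-1.32) and Pfkfb4 (-0.95). Calls of 4 of these genes ended without 1 array: Pgk1 without array 1 of the gallbladder or liver organoids (adjusted p 0.0544 to 0.057), Pgam1 without gallbladder organoid array 1, liver tissue array 2 or liver organoid array 2 (0.0522 to 0.0656), G6pc without gallbladder organoid array 1 or liver organoid array 2 (0.0537 to 0.0545), and Egln3 without gallbladder organoid array 2, liver tissue array 2, either liver organoid array or gallbladder tissue array 1 (0.0532 to 0.0717). Pgk1 was 0.79 without gallbladder tissue array 1.

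Gallbladder minus small intestine was higher for Hk2 (2.30), P4ha2 (2.15), Pkm (1.43), Pfkp (1.41), Pgam1 (1.32) and Pgk1 (1.28). It was lower for Fbp1 (-7.57), Ak4 (-3.89), G6pc (-3.81), Pklr (-1.64), Pdk1 (-1.62), Pfkm (-1.13) and Pdk2 (-0.50). The Pgk1 call ended without small intestine organoid array 1 (0.0608). The Pklr call ended without any gallbladder or small intestine organoid array or gallbladder tissue array 2 (0.052 to 0.0658), and the Ak4 call without either gallbladder organoid array, small intestine tissue array 1 or small intestine organoid array 2 (0.05 to 0.0728). Pdk2 ended without any of 12 arrays, all but the liver tissue arrays (0.0567 to 0.125). Ak4 was -2.30 without gallbladder tissue array 2.

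Liver minus small intestine was higher for Car9 (4.48), Pfkp (4.08), Egln3 (3.21), Pkm (2.75), P4ha2 (2.38), Pdk4 (2.16), Ndrg1 (2.12), Hk2 (1.50), Pfkfb4 (1.40), Aldoa (1.27), Ldhb (0.70) and Eno3 (0.47). It was lower for Fbp1 (-9.24), G6pc (-6.94), Ak4 (-5.43), Pdk1 (-1.76), Pklr (-1.43) and Pfkm (-1.14). Eno3 ended without any organoid array, small intestine tissue array 1 or liver tissue array 1 (0.0509 to 0.146), Pklr without any organoid or small intestine tissue array (0.0547 to 0.098) and Ldhb without any organoid or small intestine tissue array or liver tissue array 1 (0.0538 to 0.115). Pklr was -0.77 without liver tissue array 2. The 3 contrasts share arrays with each other.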

How the results depend on the processing

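Of 212 calls of members over the 14 comparisons, the mean over probe sets ended 4, centring 7, array weights 24, fitting only the groups compared 40 and the dim-gene filter 0. No call changed sign under these, and Hk1 in small intestine turned to -0.23 with its other probe set, an alternative chosen after seeing the data. Calls between differentiated and gallbladder organoids numbered 6, 21 with only those groups fitted, 17 with array weights and 0 to 10 without 1 array. Between gallbladder and liver organoids they numbered 8, then 26, 19 and 4 to 12, and between liver and small intestine organoids 14 and 8 to 16 without 1 array. Fitting only the groups compared gave 10 calls for gallbladder against liver tissue and 10 for gallbladder against small intestine tissue. The causes were not tested. Same-numbered arrays did not deviate together (correlations of -0.10 to 0.14 over 21 pairs of groups); with the replicate block 6 members were called between differentiated and gallbladder organoids, 20 in gallbladder and 20 in liver organoids against tissue, and 5 of the 212 calls ended. A crossed block, also chosen after seeing the data, gave 6. The number of arrays and the unknown noise floor limit small differences and low signals.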
